A study of Bos taurus with 12 samples.

Results

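Solute carriers are the membrane proteins of the SLC families that move sugars, amino acids, nucleosides, ions, metals, vitamins and metabolites across the plasma membrane and across the membranes of mitochondria and the Golgi. Members were the genes for which a probe set carried a single symbol made of SLC, a family number, the letter A and a member number, and each gene was represented by its probe set with the highest mean over all 12 arrays. This gave 163 genes of the 9155 that had a probe set of 1 symbol, measured by 231 of the 24016 probe sets tested, and all 163 symbols were found in the RefSeq gene table of cattle. Carriers work by families: SLC2 and SLC5 members bring in sugars, SLC1, SLC6, SLC7 and SLC38 members amino acids and related compounds, SLC28 and SLC29 members nucleosides, SLC4, SLC9 and SLC12 members ions, SLC30 and SLC39 members zinc, and SLC25 members sit in the inner mitochondrial membrane. In the ruminant embryo the outer epithelium, the trophectoderm, pumps sodium to fill the blastocyst cavity and later takes up nutrients from uterine fluid while the conceptus begins to elongate, without being implanted.

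RNA came from pooled cattle (Bos taurus) embryos of 4 groups with 3 pools and 3 arrays each. The Day 13 in vitro group held conceptuses that developed in recipient heifers from blastocysts made by in vitro fertilisation, and the Day 13 in vivo group held conceptuses from blastocysts of superovulated donors. The Day 7 in vitro and Day 7 in vivo groups held the blastocysts themselves, made in those same ways and frozen before any transfer. A Day 13 pool held 5 conceptuses and a Day 7 pool 25 blastocysts, 10 blastocysts had been placed in each synchronised heifer, and 75 ng of total RNA was labelled for each array. Both Day 13 groups had therefore spent their last days in a uterus, and "in vitro" names only how the blastocyst was made. Whole embryos were pooled, so fewer cells of a type and less RNA per cell cannot be told apart in any value below.

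Values are log2 intensities of Affymetrix bovine arrays as the authors deposited them, and each difference below is a log2 difference of Day 13 minus Day 7 or of in vitro minus in vivo, with its standard error (SE). A member was called where limma's test over all 24016 probe sets gave a Benjamini-Hochberg adjusted p below 0.05. A log2 intensity of 3.39, the 99th percentile over control probe sets without a matching added transcript, served as background, and where a whole group lay at or under it the fold is given as a bound with the words "at least". The intensity of a probe set depends on its sequence, so levels are compared between samples for each gene and not between genes.

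Pools carry the replicate number of their label. Arrays of a group correlated with r between 0.908 and 0.982. The poly-A spike-in RNA, added before labelling, read 9.27, 10.50 and 12.99 in Day 13 in vitro pools 1, 2 and 3, against 13.34 to 14.96 on the other 9 arrays. The difference between the 3' and 5' ends of GAPDH was 2.53 to 4.17 in the Day 13 in vitro group and 2.85 to 4.62 in the Day 13 in vivo group, against 3.40 to 4.19 in the Day 7 in vitro group and 5.58 to 5.65 in the Day 7 in vivo group. Trophoblast markers were read as a check of the tissue. Of the 9 measured, 9 exceeded background in each Day 13 group and 8 in each Day 7 group, and their mean over the list ran from 10.7 to 11.3 in Day 13 in vitro and 10.02 to 10.5 in Day 13 in vivo, against 7.56 to 8.89 in Day 7 in vitro and 7.72 to 8.67 in Day 7 in vivo. Members of the list differed. TKDP1 averaged 14.57 and 14.55 in the Day 13 in vitro and in vivo groups, against 6.40 and 6.93 on Day 7. PAG2 averaged 7.43 ± 0.42 and 6.29 ± 1.7, against 8.43 ± 0.99 and 8.21 ± 0.41 (SD, n = 3 pools each). IFNT2 averaged 12.21 against 10.25 in vitro, but 9.13 against 10.08 in vivo. CDX2, GATA3, GATA2 and TFAP2C had no probe set of their own. Of 9 measured markers of uterine epithelium or stroma, 7 lay at background on all 12 arrays, among them PGR, ESR1 and SERPINA14. DES exceeded background in every pool, with group means of 3.79 to 3.92, and MUC1 exceeded it in 1 Day 13 in vivo pool. Of 5 blood markers 4 lay at background on all 12 arrays, HBA, PTPRC, CD14 and CD3E. The fifth, the beta globin gene HBB, averaged 2.86 in Day 13 in vitro and 2.84 ± 0.59 in Day 13 in vivo, against 7.27 ± 1.9 in Day 7 in vitro and 7.27 ± 0.58 in Day 7 in vivo (SD, n = 3 pools each). Of 7 cumulus or granulosa markers 5 lay at background throughout, HAS2 exceeded it in every pool, and TNFAIP6 averaged 5.01 ± 0.30 in Day 13 in vivo, against 2.24 in Day 13 in vitro. The part of the spike-in, of RNA integrity and of the marker lists in the differences below was not tested, except where a value is given without the arrays concerned.

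Fewer of the carriers than of all genes were detected. In all, 88 of the 163 carriers (54.0%) exceeded background on 3 or more arrays, against 5803 of all 9155 genes (63.4%), and 66 carriers (40.5%) stayed at background on all arrays, against 2800 genes (30.6%). Each array detected 82 to 86 carriers. Detection followed the substrate classes: 22 of 27 mitochondrial carriers, 16 of 21 metal carriers and 5 of 5 nucleotide sugar carriers passed, but 5 of 16 sugar carriers, 4 of 15 ion carriers, 2 of 10 organic ion carriers and 0 of 5 neurotransmitter carriers. The glucose carriers SLC2A2, SLC2A3 and SLC2A4 and the sodium-glucose cotransporter SLC5A1 were among the 11 sugar carriers at background on all 12 arrays. So were the glycine carrier SLC6A9, the broad amino acid carrier SLC6A14 and the arginine carrier SLC7A1. A probe set at background does not show that the gene is silent, since a probe set can fail to detect its gene.

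The first question was how carrier expression differed between the elongating conceptus and the blastocyst. In embryos made in vitro 23 carriers (14.1%) were called, 14 higher and 9 lower on Day 13, where 10.8% of all genes were called. In embryos made in vivo 10 carriers (6.13%) were called, 6 higher and 4 lower, where 5.49% of all genes were. By direction the background was 5.00% higher and 5.77% lower in vitro, and 2.70% higher and 2.80% lower in vivo. The groups did not overlap for 53 carriers in vitro and for 35 in vivo, where the share over all genes was 29.8% in vitro and 21.1% in vivo. The median difference was 0 over the carriers and 0 over all genes in both comparisons, but the many probe sets at the floor pull such a median to 0. Among genes above background on 3 or more arrays it was 0.003 in vitro and 0.013 in vivo over 88 carriers. Over all 5803 such genes it was -0.024 and 0.024. At an unadjusted p below 0.05 the counts were 49 in vitro and 34 in vivo. The share of all genes at that threshold is not given here, so this and later unadjusted counts cannot show an excess among carriers.

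The day comparisons share no array. However, the spread of each probe set was estimated from all 12 arrays for both, so their calls are not independent. In both comparisons 7 carriers were called, all 7 in the same direction, which is 30.4% of the 23 in vitro calls and 70% of the 10 in vivo calls. Over all genes 264 were called in both. Of these, 262 had the same direction, which is 26.6% of the 986 in vitro calls and 52.1% of the 503 in vivo calls. SLC13A4, SLC9A3, SLC44A4, SLC16A3 and SLC25A12 rose and SLC6A8 and SLC7A5 fell. For each of the 7, all Day 13 pools lay on one side of all Day 7 pools, whichever way the embryos were made.

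SLC13A4 is the sodium-coupled sulfate carrier known from placenta. It read 10.24, 10.46 and 11.10 in the Day 13 in vitro pools and 11.46, 11.97 and 12.35 in the Day 13 in vivo pools, against 5.4, 4.92 and 7.12 in the Day 7 in vitro pools and 5.57, 4.48 and 4.32 in the Day 7 in vivo pools. All 6 Day 13 pools were far above all 6 Day 7 pools, and the 3 Day 13 in vivo pools were above the 3 Day 13 in vitro pools. The difference was 4.79 ± 0.59 in vitro (adjusted p = 0.00233) and 7.14 ± 0.59 in vivo (adjusted p = 0.000409), and no left-out array ended either call. The size, and the order of the origins on Day 13, depended on the probe set. A further probe set of SLC13A4 gave 4.02 in vitro, called, but 0.47 in vivo, not called. Another, at background in both Day 7 groups, was at least 7.67-fold higher on Day 13 in vitro, called, and at least 3.83-fold higher in vivo, not called. The related anion carrier SLC26A11 stayed at background on all arrays, and SLC26A2 was not measured by a probe set of its own.

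SLC9A3 is the sodium-proton exchanger of apical epithelial membranes, which takes up sodium in exchange for protons. It read 11.23, 11.06 and 11.02 in the Day 13 in vitro pools and 9.96, 10.11 and 10.34 in the Day 13 in vivo pools, against 6.01, 7.11 and 5.67 in the Day 7 in vitro pools and 6.03, 6.43 and 5.39 in the Day 7 in vivo pools. The Day 13 pools lay in a narrow band above all Day 7 pools. It rose by 4.84 ± 0.38 in vitro (adjusted p = 0.000223) and by 4.18 ± 0.38 in vivo (adjusted p = 0.000621). Both calls held under every alternative run, the spike-in covariate and each left-out array included. They rest on 1 of the 3 probe sets of SLC9A3. The others lay at background on all 12 arrays, with a mean of 2.23, so the other choices of probe set could not test these calls.

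SLC44A4, a choline and thiamine pyrophosphate carrier of epithelia, had the widest span over the 12 arrays of any carrier above background on 3 or more arrays, 9.34, where the median span of those 88 was 2.55. It read 12.89, 12.23 and 9.85 in the Day 13 in vitro pools and 7.53, 9.27 and 7.89 in the Day 13 in vivo pools, against 6.22, 4.59 and 6.73 in the Day 7 in vitro pools and 3.55, 3.64 and 3.56 in the Day 7 in vivo pools. The Day 13 pools were above the Day 7 pools, and Day 13 in vitro pools 1 and 2 stood above all others. It rose by 5.81 ± 0.86 in vitro (adjusted p = 0.00562) and by 4.65 ± 0.86 in vivo (adjusted p = 0.0217). Without Day 13 in vitro pools 1 and 2 together the in vitro difference was 4.0 and no longer called (adjusted p = 0.0946), and the in vivo call did not survive leaving out Day 13 in vivo pool 2 or 3 or Day 7 in vivo pool 1 or 2 or 3 (highest adjusted p 0.0690).

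SLC16A3 exports lactate from cells with high glycolysis. It read 8.6, 7.95 and 9.2 in the Day 13 in vitro pools and 6.15, 7.31 and 8.28 in the Day 13 in vivo pools, against 4.76, 4.5 and 4.56 in the Day 7 in vitro pools and 5.42, 4.46 and 4.46 in the Day 7 in vivo pools. The Day 7 pools lay close together and all were below the Day 13 pools, which spread more widely. It rose by 3.98 ± 0.54 in vitro (adjusted p = 0.00386) and by 2.46 ± 0.54 in vivo (adjusted p = 0.0460). The in vivo call was lost in 11 of the 12 fits that left out an array, all but the one without Day 13 in vivo pool 1, with an adjusted p up to 0.139. Both calls rest on 1 of the 3 probe sets of SLC16A3, and the others lay at background on all 12 arrays. The lactate and pyruvate carrier SLC16A1 stayed within 11.56 to 12.63 over all pools and was not called.

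SLC25A12 exchanges aspartate for glutamate across the inner mitochondrial membrane as a step of the malate-aspartate shuttle. It read 7.66, 8.49 and 7.88 in the Day 13 in vitro pools and 6.62, 6.01 and 6.34 in the Day 13 in vivo pools, against 4.21, 4.57 and 3.58 in the Day 7 in vitro pools and 4.71, 4.32 and 3.82 in the Day 7 in vivo pools. The 3 Day 13 in vitro pools were the highest, the 3 Day 13 in vivo pools came next and the 6 Day 7 pools overlapped one another below them. It rose by 3.89 ± 0.34 in vitro (adjusted p = 0.000410) and by 2.04 ± 0.34 in vivo (adjusted p = 0.0143). The in vivo call was lost with each array set to its ribosomal protein genes (difference 1.53, adjusted p = 0.0710) and with only the arrays of the groups compared. A further probe set of SLC25A12, at background in both Day 7 groups, was at least 3.22-fold higher on Day 13 in vitro, called, and exceeded background in 1 of 3 Day 13 in vivo pools, not called.

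SLC6A8 brings creatine into cells. It read 3.74, 4.67 and 5.06 in the Day 13 in vitro pools and 6.31, 6.77 and 5.66 in the Day 13 in vivo pools, against 9.09, 7.66 and 9.17 in the Day 7 in vitro pools and 9.99, 9.89 and 10.39 in the Day 7 in vivo pools. Every Day 13 pool was below every Day 7 pool, and within each day the in vitro pools lay below the in vivo pools. It fell, with differences of -4.15 ± 0.50 in vitro (adjusted p = 0.00202) and -3.84 ± 0.50 in vivo (adjusted p = 0.00429). The other probe set of SLC6A8 was above background on 3 arrays, all of Day 7, and was called in neither origin.

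SLC7A5 is the exchanger for large neutral amino acids such as leucine, and works as a pair with SLC3A2. It read 6.1, 5.62 and 6.63 in the Day 13 in vitro pools and 5.81, 7.7 and 6.67 in the Day 13 in vivo pools, against 9.79, 8.72 and 9.34 in the Day 7 in vitro pools and 9.14, 8.53 and 9.93 in the Day 7 in vivo pools. The Day 13 pools were all below the Day 7 pools. It fell, with differences of -3.16 ± 0.55 in vitro (adjusted p = 0.0117) and -2.47 ± 0.55 in vivo (adjusted p = 0.0497). The in vivo call was lost in 11 of the 12 fits that left out an array, all but the one without Day 13 in vivo pool 2 (adjusted p up to 0.138), and the in vitro call did not survive leaving out Day 13 in vitro pool 2 or Day 7 in vitro pool 1 (highest adjusted p 0.0524). Its partner SLC3A2 overlapped between the days, with differences of -0.04 ± 0.56 in vitro and 0.48 ± 0.56 in vivo.

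**Figure D1:**
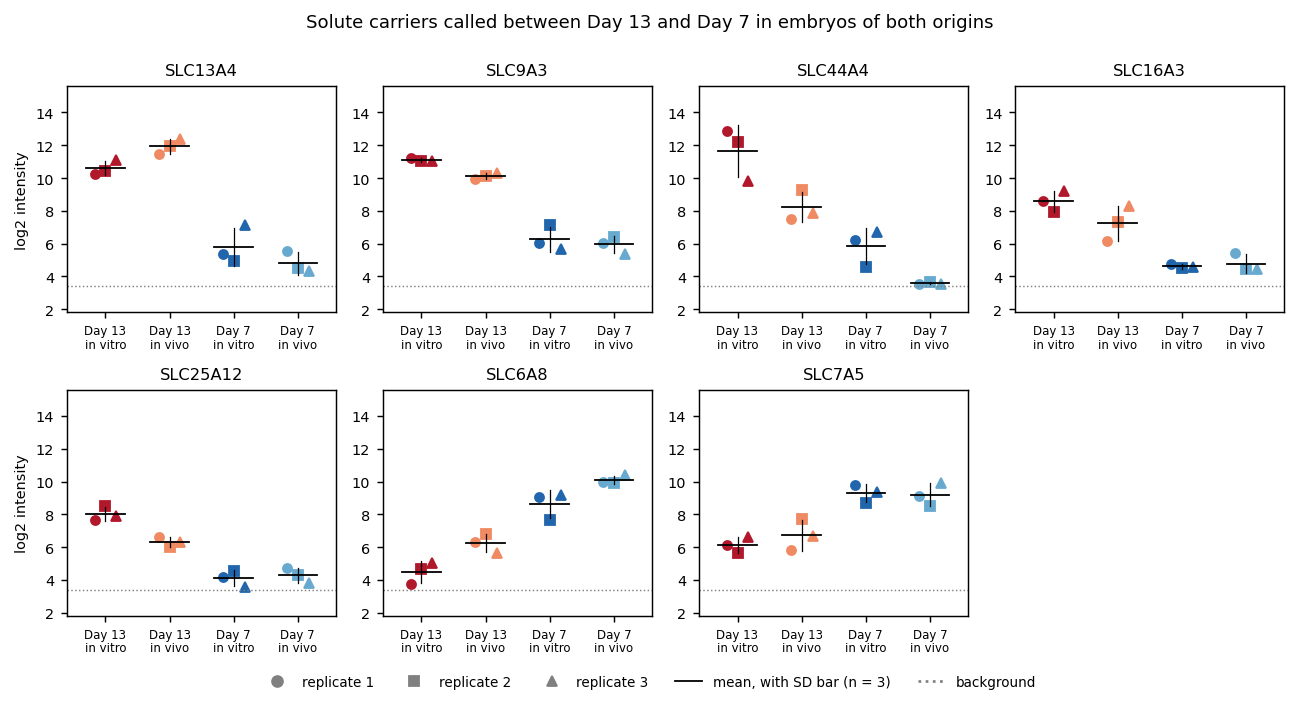
Log2 intensity of the 7 carriers called between Day 13 and Day 7 in embryos of both origins, with 1 panel per gene, 1 point per pool, a line at the mean of 3 pools, a bar of 1 SD and a dotted line at the background of 3.39. In every panel the 6 Day 13 pools and the 6 Day 7 pools do not overlap; 5 genes are higher and SLC6A8 and SLC7A5 are lower on Day 13.

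A further 16 carriers were called between the days in vitro and not in vivo, and 3 in vivo and not in vitro. Of these 19, the difference between the day effects itself was called for SLC12A2, SLC1A4 and SLC52A3, which are described with the origin comparisons. For the others a call in one origin does not show that the origins differ.

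Metal carriers gave 6 of the in vitro calls. Of 21 members, 4 rose and 2 fell in vitro, where 10.8% of all genes were called. In vivo 0 were called by limma, where 5.49% of all genes were, and 6 had an unadjusted p below 0.05. SLC39A2, a zinc importer, read 14.42, 14.48 and 14.31 in the Day 13 in vitro pools and 12.68, 11.95 and 13.61 in the Day 13 in vivo pools, against 10.74, 10.41 and 10.62 in the Day 7 in vitro pools and 12.11, 11.72 and 11.24 in the Day 7 in vivo pools. The Day 13 in vitro pools were above all 9 others, and the Day 7 in vitro pools were below all others. It rose by 3.81 ± 0.38 in vitro (adjusted p = 0.000865), against 1.06 ± 0.38 in vivo (adjusted p = 0.235), and the difference between these effects was 2.76 ± 0.54 (adjusted p = 0.0910), not called. SLC39A4, the intestinal zinc importer, went the other way and read 3.95, 3.9 and 4.91 in the Day 13 in vitro pools, against 7.89, 7.0 and 8.83 in the Day 7 in vitro pools. It fell without overlap, with a difference of -3.66 ± 0.65 (adjusted p = 0.0122), and the call did not survive leaving out Day 13 in vitro pool 1 or 2 (highest adjusted p 0.0524).

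SLC11A2, which carries ferrous iron with protons, read 10.31, 10.86 and 10.96 in the Day 13 in vitro pools, against 7.98, 9.02 and 7.96 in the Day 7 in vitro pools. The groups did not overlap and it rose by 2.39 ± 0.50 (adjusted p = 0.0244), a call that ended on leaving out Day 13 in vitro pool 1 or 2 or Day 7 in vitro pool 1 or 3 (highest adjusted p 0.0969). The zinc importer family members SLC39A11 (1.57 ± 0.21, adjusted p = 0.00367) and SLC39A9 (1.26 ± 0.32, adjusted p = 0.0483) also rose in vitro, and the copper carrier SLC31A2 fell (-2.37 ± 0.49, adjusted p = 0.0237), a call that ended on leaving out Day 13 in vitro pool 1 or 2 or Day 7 in vitro pool 1 or 2 or 3 (highest adjusted p 0.0954). SLC39A9 lies outside the rule for named genes and was chosen after its values were seen. The zinc exporter SLC30A1 just missed the threshold, with an adjusted p of 0.05001, and its level is given below with the arrays that stand apart.

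Among ion carriers, SLC9A3 and SLC12A2 rose in vitro, and in vivo SLC9A3 rose and SLC4A7 fell. SLC4A7, a sodium-bicarbonate cotransporter, read 7.3, 6.37 and 6.91 in the Day 13 in vivo pools, against 9.22, 9.38 and 7.86 in the Day 7 in vivo pools. The groups did not overlap and the difference was -1.96 ± 0.41 (adjusted p = 0.0389), a call lost in 11 of the 12 fits that left out an array, all but the one without Day 7 in vivo pool 3, with an adjusted p up to 0.130. Of the other ion carriers, 10 of 15 lay at background throughout, among them SLC4A4 and SLC12A1. SLC20A1, which carries phosphate with sodium, read 12.74, 12.40 and 12.30 in the Day 13 in vitro pools, against 10.05, 11.34 and 11.10 in the Day 7 in vitro pools. These did not overlap and it rose by 1.65 ± 0.33 in vitro (adjusted p = 0.0204), while the in vivo difference was 0.08 ± 0.33. The SLC20A1 call did not survive leaving out Day 13 in vitro pool 1 or 2 (highest adjusted p 0.0838).

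Of the 16 sugar carriers 1 was called in vitro and 0 in vivo, where 10.8% and 5.49% of all genes were called. SLC2A5, the fructose carrier, read 9.0, 10.65 and 9.81 in the Day 13 in vitro pools and 10.58, 12.23 and 10.42 in the Day 13 in vivo pools, against 12.88, 12.60 and 12.89 in the Day 7 in vitro pools and 12.17, 12.44 and 13.14 in the Day 7 in vivo pools. The Day 13 in vitro pools lay below all 6 Day 7 pools, while Day 13 in vivo pool 2 was within their range. It fell by 2.97 on the log2 scale in vitro (adjusted p = 0.0159), and its in vivo difference of -1.5 ± 0.56 was not called. The call belonged to 1 probe set, since another gave -0.40, and it did not survive leaving out Day 13 in vitro pool 1 or Day 7 in vitro pool 1 or 3 (highest adjusted p 0.0624). The glucose carrier SLC2A1 read 10.33, 10.67 and 9.41 in the Day 13 in vitro pools and 8.85, 9.73 and 8.52 in the Day 13 in vivo pools, against 10.09, 10.19 and 10.21 in the Day 7 in vitro pools and 9.28, 9.35 and 10.32 in the Day 7 in vivo pools. These overlapped, with day differences of -0.03 ± 0.43 in vitro and -0.62 ± 0.43 in vivo. The intracellular hexose carrier SLC2A8 had lower values on Day 13 without overlap in both origins, with differences of -1.12 ± 0.43 in vitro and -1.58 ± 0.43 in vivo, which missed the threshold (adjusted p = 0.193 and 0.107).

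Of 27 carriers of amino acids and related compounds, 0 rose in either origin by limma (3 higher at an unadjusted p below 0.05 in each). In vitro 3 fell, where 5.00% of all genes rose and 5.77% fell. In vivo 2 fell, where 2.70% of all genes rose and 2.80% fell. Besides SLC6A8 and SLC7A5 the in vitro fall was that of SLC1A4, a neutral amino acid exchanger described below. The sodium-coupled glutamine carrier SLC38A2 read 13.94, 13.89 and 14.14 in the Day 13 in vitro pools and 14.13, 13.42 and 13.44 in the Day 13 in vivo pools, against 12.92, 13.52 and 12.88 in the Day 7 in vitro pools and 12.97, 12.98 and 13.01 in the Day 7 in vivo pools. Day 13 exceeded Day 7 without overlap in each origin, by 0.88 ± 0.22 in vitro and 0.68 ± 0.22 in vivo, and neither was called (adjusted p = 0.0507 and 0.188). The glutamine exchanger SLC1A5 overlapped between all groups, at 7.87 to 10.04.

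Of 27 mitochondrial carriers, 22 were detected, SLC25A12 rose in both origins and SLC25A20 fell in vitro. Over all genes 10.8% were called in vitro and 5.49% in vivo. At an unadjusted p below 0.05, 6 were higher and 2 lower on Day 13 in vitro, and 3 were higher and 3 lower in vivo. SLC25A20, which brings acylcarnitines into mitochondria for fatty acid oxidation, read 8.98, 9.04 and 10.72 in the Day 13 in vitro pools and 10.03, 10.22 and 10.34 in the Day 13 in vivo pools, against 11.52, 11.43 and 11.31 in the Day 7 in vitro pools and 11.30, 11.48 and 11.43 in the Day 7 in vivo pools. All Day 13 pools were below all Day 7 pools, with Day 13 in vitro pools 1 and 2 the lowest. The difference was -1.84 ± 0.40 in vitro (adjusted p = 0.0287) and -1.21 ± 0.40 in vivo (adjusted p = 0.194), of which the first was called. Without Day 13 in vitro pools 1 and 2 together the in vitro difference shrank to -0.704 and remained called (adjusted p = 0.0468), and it was not called on leaving out Day 13 in vitro pool 1 or 2 or Day 7 in vitro pool 1 or 2 or 3 (highest adjusted p 0.104). The phosphate carrier SLC25A3 and the ADP/ATP carriers SLC25A4, SLC25A5 and SLC25A6 were above background on all arrays and were not called, with in vitro day differences between -0.56 and 0.44. Near-identical carriers such as these can bind each other's probes, which was not tested.

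Carriers of lipids, choline and acetyl groups gave 3 calls in vitro among 10 members, where 10.8% of all genes were called. Besides SLC44A4, SLC33A1, which carries acetyl-CoA into the endoplasmic reticulum, rose by 2.37 ± 0.43 (adjusted p = 0.0140), a call that ended on leaving out Day 13 in vitro pool 1 or Day 7 in vitro pool 1 or 3 (highest adjusted p 0.0601). The choline carrier SLC44A2 fell, with a difference of -1.79 ± 0.37 (adjusted p = 0.0227), a call that ended on leaving out Day 13 in vitro pool 2 or Day 7 in vitro pool 1 or 3 (highest adjusted p 0.0896). Their groups did not overlap in vitro, nor in vivo, where SLC33A1 differed by 1.5 ± 0.43 and SLC44A2 by -1.34 ± 0.37 without a call. SLC16A13, a monocarboxylate carrier family member, fell by 1.05 on the log2 scale in vitro (adjusted p = 0.0329), but another probe set differed by 0.14 and the call did not survive leaving out Day 13 in vitro pool 1 or 2, Day 13 in vivo pool 1 or 3, Day 7 in vitro pool 1 or 2 or Day 7 in vivo pool 1 (highest adjusted p 0.126).

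**Figure D2:**
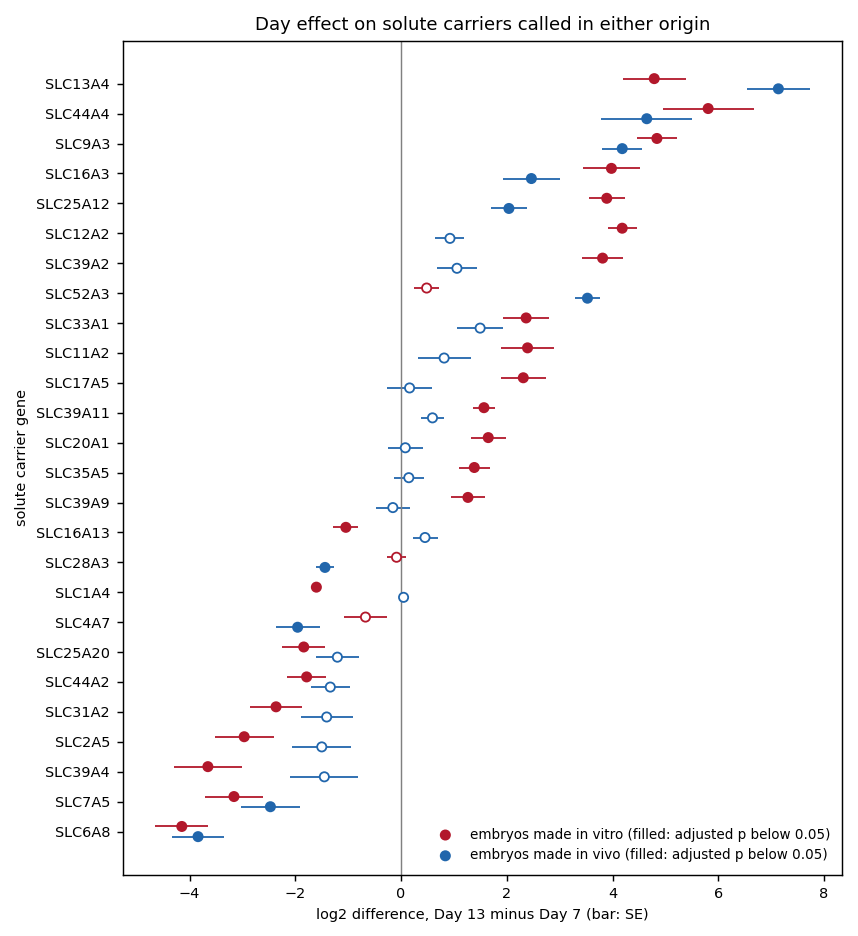
Log2 difference of Day 13 minus Day 7 for the 26 carriers called in embryos of either origin, with bars of 1 SE; red points are embryos made in vitro, blue points those made in vivo, and filled points were called at an adjusted p below 0.05. For 7 genes both points are filled and lie on the same side of 0; differences of groups at background are fitted values and not folds.

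The in vitro day count leaned on single arrays. It was 12 without Day 13 in vitro pool 1, 12 without Day 13 in vitro pool 2, 12 without Day 7 in vitro pool 1, 14 without Day 7 in vitro pool 3 and 35 without Day 13 in vitro pool 3, and 22 of the 23 original calls were among those 35. Leaving out both Day 13 in vitro pools 1 and 2 gave 13 calls, and 10 of the original 23 were present in them. With the spike-in signal as a covariate 4 carriers were called in vitro, SLC9A3, SLC12A2, SLC25A12 and SLC1A4. The in vivo count was 6 without Day 7 in vivo pool 2. The share of all probe sets called in these fits is not given here. Whether the counts moved with those of all probe sets can therefore not be read from them.

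A list of proteins that work beside carriers was read out in the same fit, with 23 members measured. In vitro 4 rose and 1 fell, where 10.8% of all genes were called, and in vivo 3 rose and 2 fell, where 5.49% were. PDZK1, a scaffold that holds carriers such as SLC9A3 at the apical membrane, read 10.70, 10.37 and 9.61 in the Day 13 in vitro pools and 8.93, 9.26 and 9.15 in the Day 13 in vivo pools, against 3.29, 2.66 and 2.9 in the Day 7 in vitro pools and 2.34, 3.86 and 2.53 in the Day 7 in vivo pools. It was bright in all Day 13 pools and at or near background in all Day 7 pools, at least 114-fold higher on Day 13 than on Day 7 in vitro (adjusted p = 4.40e-05), with a difference of 6.21 ± 0.42 in vivo (adjusted p = 0.000153). Another scaffold of SLC9A3, NHERF1, was high on both days and was not called.

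CHP2, a calcium-binding cofactor of the sodium-proton exchangers, ran opposite to SLC9A3. It read 2.56, 2.56 and 3.12 in the Day 13 in vitro pools and 3.22, 2.42 and 2.78 in the Day 13 in vivo pools, against 8.07, 8.03 and 7.91 in the Day 7 in vitro pools and 7.4, 6.88 and 7.34 in the Day 7 in vivo pools. All 6 Day 13 pools were at background and all 6 Day 7 pools above it, so that it was at least 24.5-fold lower on Day 13 than on Day 7 in vitro (adjusted p = 1.42e-05) and at least 14.1-fold lower in vivo (adjusted p = 5.13e-05). Its relative CHP1 was above background in every pool, at 11.04 to 12.36, with differences of -0.49 ± 0.13 in vitro, not called, and -0.98 ± 0.13 in vivo (adjusted p = 0.00445). CA2, the carbonic anhydrase that yields protons and bicarbonate for exchange, was above background in all Day 13 pools and at it in all Day 7 pools, at least 15.8-fold higher on Day 13 than on Day 7 in vitro (adjusted p = 6.01e-05) and at least 18.2-fold higher in vivo (adjusted p = 9.18e-05).

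ATP1B1, a beta subunit of the sodium pump, rose by 1.59 ± 0.23 in vitro (adjusted p = 0.00550) and by 2.03 ± 0.23 in vivo (adjusted p = 0.00244). Its Day 13 pools, at 6.71 to 7.95, lay above its Day 7 pools, at 5.03 to 5.73. SLCO4C1, an organic anion carrier of another family, read 11.28, 11.15 and 10.86 in the Day 13 in vitro pools and 9.07, 7.06 and 8.51 in the Day 13 in vivo pools, against 7.14, 7.43 and 6.79 in the Day 7 in vitro pools and 6.02, 6.72 and 6.79 in the Day 7 in vivo pools. The Day 13 in vitro pools stood above all others. It rose by 3.98 ± 0.47 in vitro (adjusted p = 0.00192), against 1.7 ± 0.47 in vivo (adjusted p = 0.110), and was 2.88 ± 0.47 higher in vitro than in vivo on Day 13 (adjusted p = 0.0307).

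**Figure D3:**
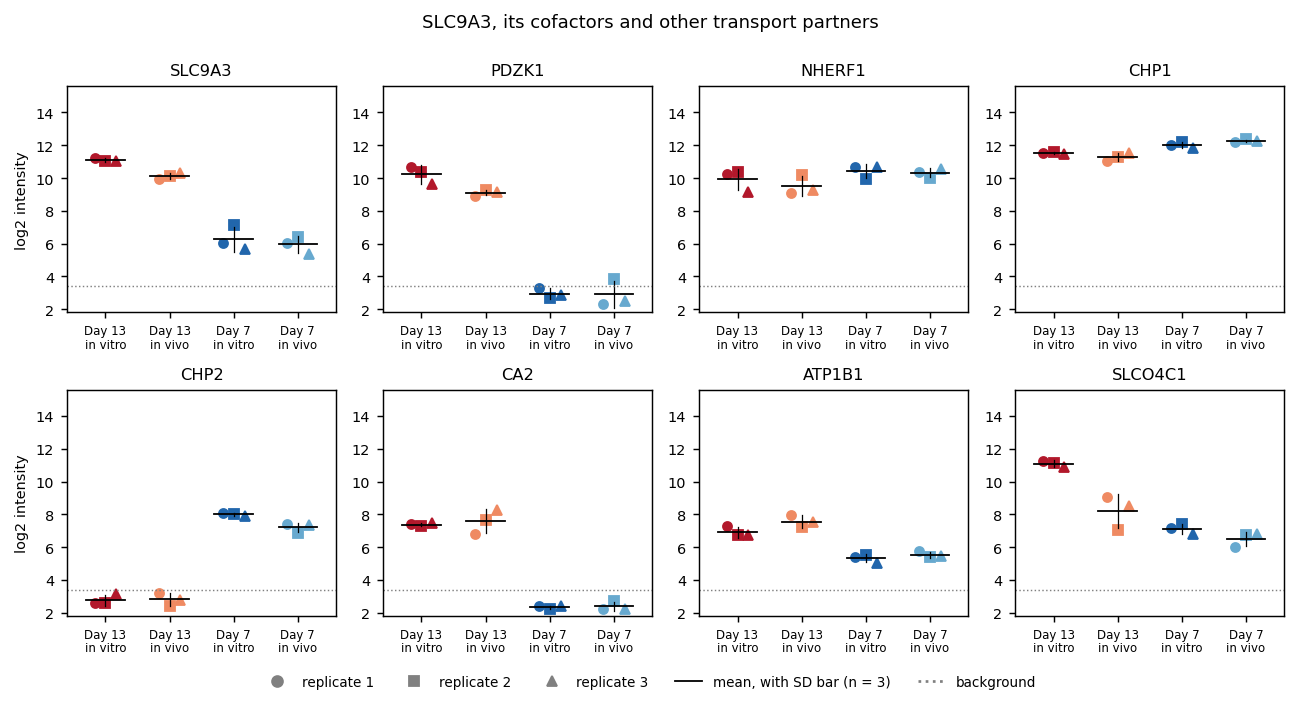
Log2 intensity of SLC9A3 and of 7 genes from the partner list, with 1 panel per gene, 1 point per pool, a line at the mean of 3 pools, a bar of 1 SD and a dotted line at the background of 3.39. SLC9A3, PDZK1, CA2 and ATP1B1 are higher and CHP2 is lower in all 6 Day 13 pools than in all 6 Day 7 pools.

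The second question was whether the way the blastocyst was made left a difference in its carriers, on Day 13 and on Day 7. On Day 13, 4 carriers (2.45%) were called, 3 higher and 1 lower in vitro, where 1.64% of all genes were called. The background by direction was 0.852% higher and 0.786% lower. The groups did not overlap for 28 carriers, where that share was 20.2% of all genes, and 39 carriers had an unadjusted p below 0.05. On Day 7, 2 carriers (1.23%) were called, 1 in each direction, where 0.295% of all genes were, 0.218% higher and 0.0765% lower. The groups did not overlap for 18 carriers (13.1% of all genes), and 15 had an unadjusted p below 0.05. For both unadjusted counts the share of all genes is again not given. The origin comparison on Day 13 shares its arrays with the day comparisons, so a gene called in both is not called on separate evidence.

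SLC12A2 is the sodium-potassium-chloride cotransporter that drives chloride and fluid secretion in epithelia. It read 7.82, 7.24 and 6.88 in the Day 13 in vitro pools and 4.0, 3.35 and 3.52 in the Day 13 in vivo pools, against 3.35, 3.34 and 2.7 in the Day 7 in vitro pools and 2.69, 2.73 and 2.69 in the Day 7 in vivo pools. The 3 Day 13 in vitro pools stood alone, and the 9 others lay at or just above background. On Day 13 it was 3.69 ± 0.27 higher in vitro than in vivo (adjusted p = 0.000682), and within embryos made in vitro it was at least 15.2-fold higher on Day 13 (adjusted p = 8.01e-05). Its other probe set exceeded background in the 3 Day 13 in vitro pools alone and was at least 2.84-fold higher there in both comparisons, both called. No left-out array ended either call. The origin call was lost with the spike-in covariate and with only the arrays of the groups compared, and the day call was not.

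SLC52A3, a riboflavin carrier, was the reverse. It read 2.44, 2.92 and 3.09 in the Day 13 in vitro pools and 5.74, 6.34 and 5.39 in the Day 13 in vivo pools, against 2.36, 2.26 and 2.37 in the Day 7 in vitro pools and 2.25, 2.32 and 2.32 in the Day 7 in vivo pools. Only the 3 Day 13 in vivo pools exceeded background. On Day 13 it was at least 5.40-fold lower in vitro than in vivo (adjusted p = 0.000856), and in vivo it was at least 5.40-fold higher on Day 13 than on Day 7 (adjusted p = 0.000137). The call between the origins was lost with the spike-in covariate and with only the arrays of the groups compared, and no left-out array ended it. Its relative SLC52A2 was above background in every pool and was not called.

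SLC17A5, the lysosomal carrier of sialic acid, read 10.88, 10.62 and 10.03 in the Day 13 in vitro pools and 7.52, 7.37 and 8.21 in the Day 13 in vivo pools, against 8.1, 8.88 and 7.63 in the Day 7 in vitro pools and 8.03, 7.71 and 6.87 in the Day 7 in vivo pools. Day 13 in vitro was above every other group without overlap. It was 2.81 ± 0.43 higher in vitro than in vivo on Day 13 (adjusted p = 0.0225) and rose by 2.31 ± 0.43 between the days in vitro (adjusted p = 0.0146). The origin call did not survive leaving out Day 13 in vitro pool 1 or 2, Day 13 in vivo pool 1 or 2 or Day 7 in vitro pool 1 (highest adjusted p 0.0986), and the day call on leaving out Day 13 in vitro pool 1 or 2 or Day 7 in vitro pool 1 or 3 (highest adjusted p 0.0619).

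SLC35A5, a member of the Golgi nucleotide sugar carrier family, read 9.06, 8.48 and 8.53 in the Day 13 in vitro pools and 6.84, 6.96 and 7.4 in the Day 13 in vivo pools, against 7.29, 7.51 and 7.13 in the Day 7 in vitro pools and 6.86, 7.49 and 6.41 in the Day 7 in vivo pools. Again the Day 13 in vitro pools were above all 9 others. It was 1.63 ± 0.29 higher in vitro than in vivo on Day 13 (adjusted p = 0.0406) and rose by 1.38 ± 0.29 between the days in vitro (adjusted p = 0.0235). The origin call did not survive leaving out Day 13 in vitro pool 1 or 2, Day 13 in vivo pool 1 or 2, Day 7 in vitro pool 1 or 2 or 3 or Day 7 in vivo pool 1 (highest adjusted p 0.146), and the day call on leaving out Day 13 in vitro pool 1 or 2 or Day 7 in vitro pool 1 or 3 (highest adjusted p 0.0906).

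On Day 7, SLC1A4 and SLC28A3 were called. SLC1A4 read 2.81, 2.83 and 3.11 in the Day 13 in vitro pools and 3.15, 3.08 and 3.11 in the Day 13 in vivo pools, against 4.5, 4.49 and 4.58 in the Day 7 in vitro pools and 3.04, 2.98 and 3.18 in the Day 7 in vivo pools. The 3 Day 7 in vitro pools were above background and the 9 other pools below it. It was at least 2.19-fold higher in vitro than in vivo on Day 7 (adjusted p = 0.000376), and at least 2.19-fold lower on Day 13 than on Day 7 in vitro (adjusted p = 2.82e-05). The Day 7 call did not hold with each array set to its ribosomal protein genes (difference 0.91, adjusted p = 0.107). It was also lost with a trended and robust empirical Bayes step and with only the arrays of the groups compared.

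SLC28A3, a concentrative nucleoside carrier, read 2.23, 2.23 and 2.26 in the Day 13 in vitro pools and 2.23, 2.26 and 2.26 in the Day 13 in vivo pools, against 2.3, 2.42 and 2.26 in the Day 7 in vitro pools and 3.59, 3.31 and 4.17 in the Day 7 in vivo pools. The Day 7 in vivo pools were the highest but near background, with 1 of the 3 below it. All other pools lay at 2.23 to 2.42, near the floor, which lowers the shared spread that the p-values rest on. It was at least 1.23-fold lower in vitro than in vivo on Day 7 (adjusted p = 0.0367) and at least 1.23-fold lower on Day 13 than on Day 7 in vivo (adjusted p = 0.00339). The call between the origins was lost without Day 13 in vitro pool 1 or 2 or 3, Day 13 in vivo pool 1 or 2 or 3, Day 7 in vitro pool 1 or 3 or Day 7 in vivo pool 1 (highest adjusted p 0.120). The equilibrative nucleoside carriers SLC29A1 and SLC29A2 were above background in every pool, overlapped between the groups and were not called.

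**Figure D4:**
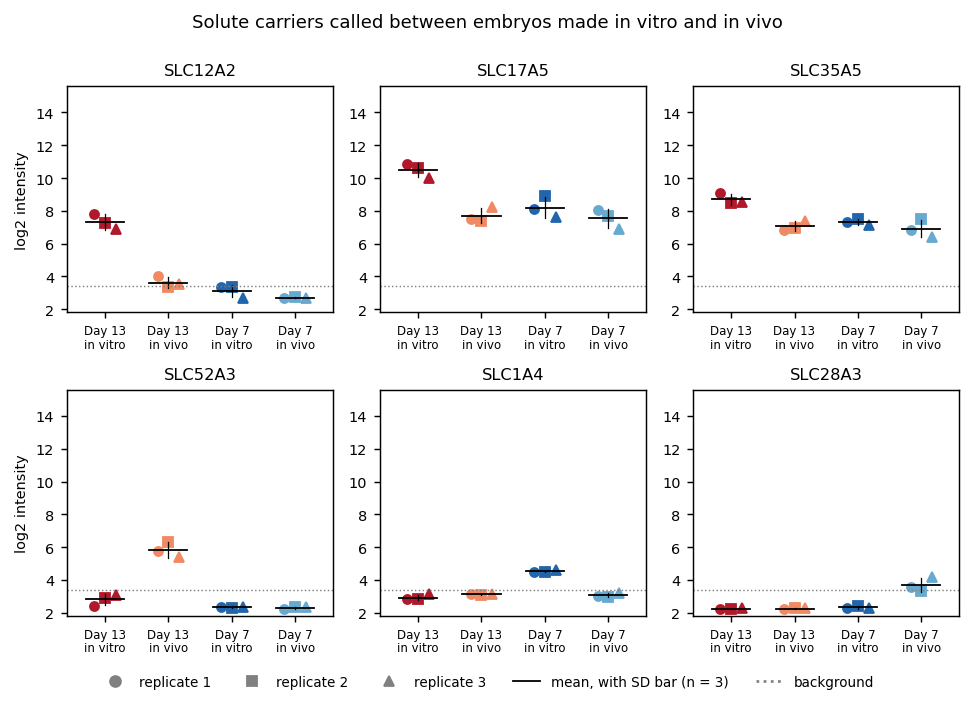
Log2 intensity of the 6 carriers called between embryos made in vitro and in vivo on Day 13 or Day 7, with 1 panel per gene, 1 point per pool, a line at the mean of 3 pools, a bar of 1 SD and a dotted line at the background of 3.39. SLC12A2, SLC17A5 and SLC35A5 are highest in the Day 13 in vitro pools, SLC52A3 in the Day 13 in vivo pools, SLC1A4 in the Day 7 in vitro pools and SLC28A3 in the Day 7 in vivo pools.

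Marker lists of other embryonic cell types differed in level between the groups. The hypoblast or yolk sac list, with 9 of 10 genes measured and TTR at background throughout, averaged 7.79 to 8.45 in Day 13 in vitro pools and 9.18 to 9.84 in Day 13 in vivo pools, against 7.85 to 8.12 in Day 7 in vitro pools and 7.18 to 7.59 in Day 7 in vivo pools. It had 7 genes above background in Day 13 in vivo and 6 in each other group. Members of this list also ran opposite ways. In vivo APOA2 averaged 8.20 ± 1.7 on Day 13 against 2.28 ± 0.01 on Day 7. GATA6 averaged 12.22 ± 0.80 against 13.60 ± 0.50, and FN1 13.49 ± 0.19 against 14.13 ± 0.22 (SD, n = 3 pools each). The epiblast list, with POU5F1, SOX2 and CRIPTO measured, averaged 5.53 to 5.92 in Day 13 in vitro pools and 6.75 to 7.81 in Day 13 in vivo pools, against 4.89 to 6.34 in Day 7 in vitro pools and 5.86 to 6.72 in Day 7 in vivo pools. Its members ran opposite ways. POU5F1 averaged 4.98 ± 0.42 in Day 13 in vitro and 7.69 ± 1.5 in Day 13 in vivo, against 10.78 ± 0.77 in Day 7 in vitro and 9.33 ± 0.77 in Day 7 in vivo. CRIPTO averaged 10.03 ± 0.28 in Day 13 in vitro and 11.32 ± 0.29 in Day 13 in vivo, against 2.98 ± 0.52 in Day 7 in vitro and 6.47 ± 0.16 in Day 7 in vivo (SD, n = 3 pools each). The part of these lists in the day and origin calls was not tested.

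The day effect itself differed between the origins for 3 carriers (1.84%), 1 with a larger and 2 with a smaller effect in vitro, where 0.513% of all genes were called, 0.131% and 0.382% by direction. These were SLC12A2 (3.26 ± 0.39, adjusted p = 0.0125), SLC52A3 (-3.04 ± 0.34, adjusted p = 0.00833) and SLC1A4 (-1.65 ± 0.12, adjusted p = 0.00151). Each difference is a fitted value that includes groups at background, so it is not a fold. Its p-value rests on a spread shared with those groups, whose values are compressed. No left-out array ended any of the 3 calls. Without Day 13 in vitro pool 3 the count was 15, and without Day 13 in vivo pool 1 it was 5, with the share of all probe sets not given. In the Day 13 origin comparison the count without Day 13 in vitro pool 3 was 24, where 8.57% of all probe sets were called, and it was 2 without Day 13 in vitro pool 1, Day 13 in vitro pool 2 or Day 13 in vivo pool 2.

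As a group the 21 metal carriers had a median difference of 0.53 between in vitro and in vivo on Day 13, where the median of all genes was 0, with 11 above 0.5 and 3 below -0.5. By limma 0 of them were called, where 1.64% of all genes were, with 9 higher and 1 lower at an unadjusted p below 0.05. The median depended on the scaling and on the arrays with low spike-in. It was 0.20 after quantile normalization and 0.37 without Day 13 in vitro pools 1 and 2. Metal carriers did not have the largest class median. Class medians ran from -0.66 (2 sulfate and anion exchange carriers) to 0.87 (5 nucleotide sugar carriers), with 0.82 for the 2 peptide carriers. Among genes above background on 3 or more arrays the median was 0.085 over all 5803 and 0.22 over the 88 carriers.

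Day 13 in vitro pools 1 and 2, the arrays of lowest spike-in signal, stood apart in 9 carriers (5.52%), which lay more than 1 log2 unit beyond all 10 other arrays on both, where 4% of all genes did. SLC1A1, SLC27A6, SLC44A4, SLC30A1, SLC39A7, SLC25A11, SLC35A3 and SLC5A5 were above, and SLC5A10 was below. These were chosen for this pattern, and no test is given for it. The zinc exporter SLC30A1 read 6.2, 4.67 and 3.13 in the Day 13 in vitro pools and lay at the floor of 2.23 in all 9 others. The glutamate carrier SLC1A1 read 6.95, 5.67 and 3.66 in the Day 13 in vitro pools, against 3.59 to 4.12 in the other groups, and the iodide carrier SLC5A5 read 6.95, 5.78 and 2.24, against 2.24 to 2.31 in the other groups. In each of these the third pool of the same group lay with or near the other groups.

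**Figure D5:**
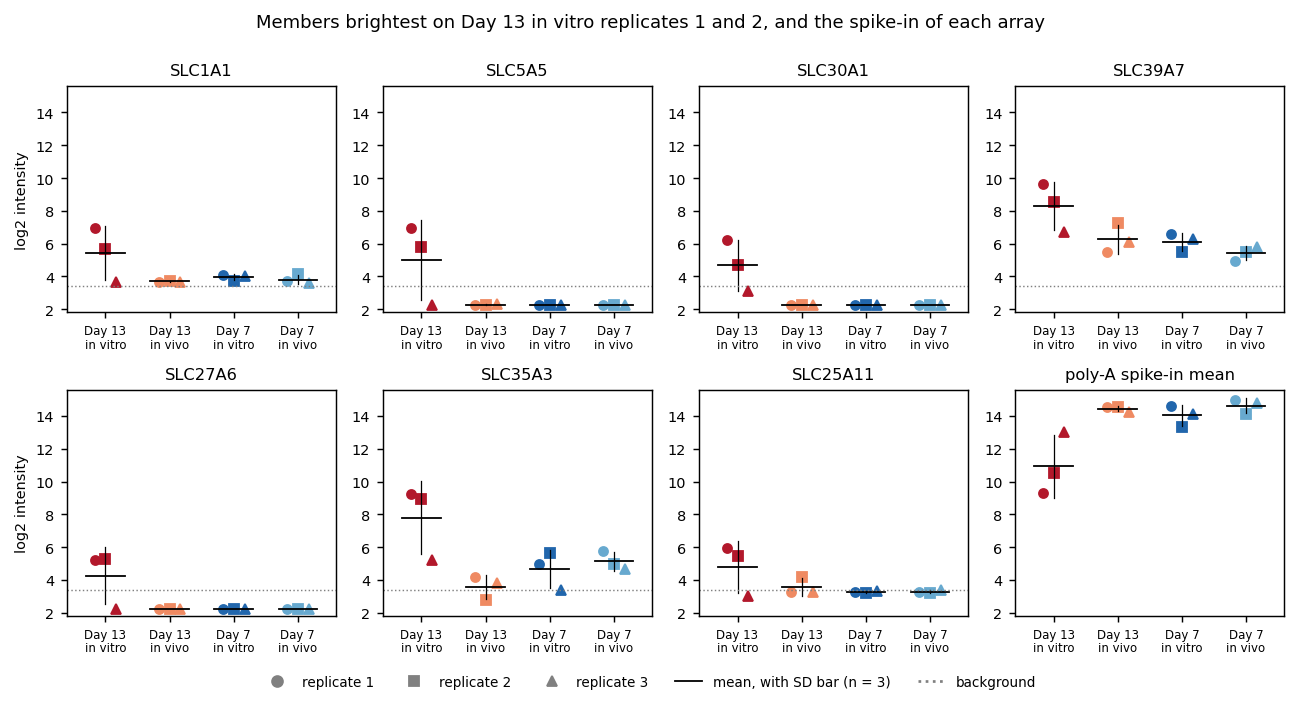
Log2 intensity of 7 of the 8 carriers that lay more than 1 log2 unit above all other arrays on both Day 13 in vitro pools 1 and 2, and the mean of the poly-A spike-in probe sets, with 1 point per pool, a line at the mean of 3 pools, a bar of 1 SD and a dotted line at the background of 3.39. The circle and the square of the Day 13 in vitro group stand above the rest for the carriers, and below the rest for the spike-in, at 9.27 and 10.50.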

How the data were processed

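Gene expression was measured in 12 pools of cattle embryos on Affymetrix bovine arrays, 3 in each of 4 groups taken from the sample titles. The deposited values are log2 intensities per probe set, normalized between arrays by the authors. Per the submitters' processing notes, the tools were RMA, GCRMA and limma. Their versions, and whether RMA or GCRMA gave the deposited values, are not given in the sources used here. The values have a floor of 2.23, and differences near it are compressed. Gene names came from the platform annotation: 112 control probe sets were left out, and of the remaining 24016, 13292 had 1 symbol, 86 several and 10638 none. No genome positions or sequences are used here.

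With limma 3.58.1 under R 4.3.3, lmFit and eBayes (no trend) were applied to all 24016 probe sets, with a mean for each group. Each of 5 contrasts was tested two-sided, with Benjamini-Hochberg adjustment over all probe sets. Degrees of freedom were 8 residual and 0.379 prior. Background was the 99th percentile over 49 control probe sets without a matching added transcript. The code was tested on simulated data. The labels call the pools biological replicates. Whether pools shared donors or recipients is not given, and p-values measure the spread between these pools, shared over the 4 groups. Values of a group near the floor are compressed, which lowers that shared spread. For genes with such groups the p-values can therefore be too small. The number of arrays limits the precision.

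Equal replicate numbers were checked for pairing on deviations from the group means: 3 of 18 same-numbered pairs had r above 0.1 (median -0.06), so no pairing was used. Alternatives were other scalings, filters, probe set choices, an empirical Bayes variant, a spike-in covariate, a replicate block and leaving out arrays. The members, substrate classes and partner, marker and gene lists were chosen with earlier results of these data known. Named genes were, in each day comparison, the 8 largest rises and 8 largest falls among called carriers without overlap whose brighter group was above background; all carriers called between origins or in the difference of the day effect; in each class up to 4 called carriers of smallest adjusted p and the 2 of highest mean; and a fixed set of 36 genes, among which SLC7A8, SLC26A2 and SLC44A1 were not measured. Other genes named were chosen after their values were seen.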

Additional observations from a re-analysis of the deposited data

Results flagged for a closer look

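For 3 carriers the effect of day differed between embryos made in vitro and in vivo by a test of that difference. The day effect of SLC12A2 was larger in vitro, by 3.26 ± 0.39 on the log2 scale (adjusted p = 0.0125), and only its Day 13 in vitro pools were well above background. That of SLC52A3 was lower in vitro, a difference of -3.04 ± 0.34 (adjusted p = 0.00833), and only its Day 13 in vivo pools exceeded background. That of SLC1A4 was lower in vitro, a difference of -1.65 ± 0.12 (adjusted p = 0.00151), and only its Day 7 in vitro pools exceeded background. All 3 calls were lost with a trended and robust empirical Bayes step, those of SLC12A2 and SLC52A3 with the spike-in covariate, and that of SLC1A4 with arrays centred on ribosomal protein genes.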

How the results depend on the processing

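The number of carriers called was 23 and 10 between the days in vitro and in vivo, 4 and 2 between the origins on Day 13 and Day 7, and 3 for the difference of the day effect. In these 5 comparisons, in that order, leaving out single arrays gave 12 to 35, 6 to 10, 2 to 24, 1 to 2 and 3 to 15. A count printed without the share of all probe sets does not show whether carriers moved more than other genes. Without Day 13 in vitro replicates 1 and 2 together the first was 13, the fourth 1 and the fifth 6. With equal replicate numbers as a block the counts were 15, 6, 2 and 1 in the first 4, and 3 in the fifth; the numbers were not found to pair the pools. With only the arrays of the groups compared, which leaves fewer residual degrees of freedom, they were 10, 5, 0 and 0. With the spike-in covariate, which is low in the Day 13 in vitro group, they were 4, 11, 0, 1 and 1, and with a trended and robust empirical Bayes step 18, 7, 2, 0 and 0. Testing only probe sets above background on 3 or more arrays, which are fewer, gave 33, 17, 15, 1 and 4, where the share of all tested probe sets called was 27.2%, 14%, 11.5%, 0.765% and 2.62%. Centring on ribosomal protein genes shifted all probe sets by 0.16, -0.51, 0.13, -0.54 and 0.67 in the 5 comparisons and gave 25, 20, 11, 1 and 4 (9.05%, 7.36%, 2.91%, 0.233% and 0.866% of all probe sets), with 5 higher and 15 lower carriers in vivo between the days, 7 higher and 4 lower between origins on Day 13, 0 higher and 1 lower on Day 7, and 3 higher and 1 lower for the fifth. Quantile normalization, median centring and the other choices of probe set kept each count within 1.5 times. A lower background, at the 95th percentile, enters no test of a call and so could not change a count. The cause of these changes was not tested beyond the constructions named. Of the named calls, 12 of 22, 4 of 10, 2 of 4, 1 of 2 and 0 of 3 were lost on leaving out at least 1 array, and 0 changed direction under any alternative run. With only the arrays of the groups compared 15, 6, 4 and 2 of the named calls in the first 4 were lost, and with the spike-in covariate 18, 3, 4, 1 and 2. SLC9A3 in both origins, SLC13A4 and SLC52A3 between the days in vivo, and SLC12A2, SLC25A12 and SLC1A4 between the days in vitro were called under all alternatives run. The mean over a gene's probe sets lowered the in vivo day difference of SLC13A4 to 3.33 (adjusted p = 0.0101) and that of SLC6A8 to -2.21, no longer called (adjusted p = 0.0841).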

Other observations

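Several carriers separated the origins on Day 13 without passing the threshold. SLC5A10, a carrier of the sodium-sugar family named after its values were seen, read 5.66, 6.22 and 8.12 in Day 13 in vitro pools and 9.41, 10.26 and 8.98 in Day 13 in vivo pools, a difference of -2.88 ± 0.60 (adjusted p = 0.0666). The carnitine carrier SLC22A5 read 8.68, 9.03 and 9.3 in Day 13 in vitro pools and 7.33, 7.09 and 8.17 in Day 13 in vivo pools, a difference of 1.47 ± 0.30 (adjusted p = 0.0619). SLC66A3 was higher in vitro than in vivo on Day 13 (1.53 ± 0.56) and lower on Day 7 (-1.6 ± 0.56), each without overlap and neither called (adjusted p = 0.229 and 0.622); the difference of its day effects was 3.13 ± 0.79 (adjusted p = 0.197).

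The bile acid carrier SLC10A1 read 10.02, 9.44 and 9.81 in the Day 13 in vitro pools and 9.76, 7.38 and 7.38 in the Day 13 in vivo pools, against 7.24, 7.62 and 7.34 in the Day 7 in vitro pools and 6.83, 6.06 and 4.0 in the Day 7 in vivo pools. Its Day 13 pools did not overlap its Day 7 pools in either origin, and the differences of 2.35 ± 0.81 in vitro and 2.54 ± 0.81 in vivo were not called (adjusted p = 0.144 and 0.173). Another probe set of SLC10A1, of lower mean, differed by 2.83 in vitro, called (adjusted p = 0.0124), and by 2.04 in vivo, not called (adjusted p = 0.0710). The copper importer SLC31A1 differed by -1.63 ± 0.43 between the days in vivo (adjusted p = 0.0925) and by -0.69 ± 0.43 in vitro. In 10 of the 88 carriers above background on 3 or more arrays, 4 or more arrays held 1 value to within 0.01, as with SLC4A2 and SLC34A1, and 0 of these carriers were called in any comparison.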
